A study of Mus musculus with 72 samples.

Results

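The cytosolic ribosomal protein genes were followed through 72 RNA-seq libraries of mouse macrophages. Genes were taken when their symbol was Rpl or Rps followed by a digit, or was Rpsa, Rplp0, Rplp1 or Rplp2, and symbols with -ps and the Rps6k kinases were left out. The rule found 78 of the 8983 genes in the dexamethasone table of RAW264.7 cells, 78 of 9179 in the table of marrow-derived macrophages and 89 of 18254 in the IFNB1 table of RAW264.7 cells. 77 were in all 3 tables. Rps12 was listed in the RAW264.7 dexamethasone table and not in the marrow-derived one, Rps18 the other way round, and 10 genes only in the IFNB1 table. In each dexamethasone table the set held 30 proteins of the small subunit, 47 of the large subunit and Rps19bp1, which binds Rps19 and is not itself a ribosomal protein.

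Bone marrow-derived macrophages (strain label C57BL/6J, grown in L929 cell supernatant and treated in serum-free medium) were controls or Setd1bKO, and each genotype received vehicle, LPS, or dexamethasone with LPS. They had 16 h of ethanol or dexamethasone, and LPS, where given, ran for 6 h. The controls are titled wild-type and carry the genotype label Setd1bHet, so they may be heterozygous, and the labels say female where the growth protocol says male mice. RAW264.7 is a mouse macrophage-like cell line (strain label BALB/c). It was wild-type or Setd1aDel/+ (Setd1aDel below), a label of 1 altered allele, and the sources used here do not say whether the line is 1 clone. In 1 experiment these cells had 16 h of ethanol or dexamethasone and 6 h of LPS or its vehicle. In another both agents ran for 6 h, with a further group on dexamethasone alone, and in the last all cells had LPS for 6 h, without or with IFNB1. Dexamethasone, a glucocorticoid, was at 1 uM, LPS, the bacterial endotoxin, at 100 ng/ml and the interferon IFNB1 at 10 ng/ml by the sample labels. Every group had 3 libraries, which the series calls biological replicates without saying whether they came from separate mice or cultures, so p-values measure the spread between these libraries only.

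Each ribosome carries about one copy of every ribosomal protein, and cells make these proteins in matched amounts. Their mRNAs belong to the TOP class: they begin with a C followed by an unbroken stretch of pyrimidines, and the kinase mTOR, with the TOP-binding protein Larp1, sets how strongly they are translated and how stable they are. Growth and Myc activity raise ribosome production, and macrophages reset protein synthesis when LPS activates them. A few members have a paralog (Rpl22 and Rpl22l1, Rps27 and Rps27l, Rpl7 and Rpl7l1, Rpl36a and Rpl36al), and many have near-identical pseudogenes that share reads with them.

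RefSeq start sites (GRCm38.p6) were found for 65 member symbols, in 77 windows. The following 30-base windows, from 10 bases before the annotated start to 20 after it, are shown because they carry the C and pyrimidine run at the start itself. In these windows capitals mark the run of C and T letters from the annotated start onward. In several of them the C and T letters also reach back before the start, in small letters.
Rpl15 at chr14:18270967-18270996, minus strand: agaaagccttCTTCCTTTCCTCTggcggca
Rpl35 at chr2:39005112-39005141, minus strand: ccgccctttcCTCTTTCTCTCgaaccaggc
Rps6 at chr4:86857348-86857377, minus strand: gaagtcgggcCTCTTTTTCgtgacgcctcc
Rps18 at chr17:33955646-33955675, minus strand: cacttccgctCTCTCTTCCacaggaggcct
Rps10 at chr17:27635225-27635254, minus strand: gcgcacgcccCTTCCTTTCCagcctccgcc
Rps15a at chr7:118116128-118116157, minus strand: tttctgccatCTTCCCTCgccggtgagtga
Rpl38 at chr11:114668570-114668599, plus strand: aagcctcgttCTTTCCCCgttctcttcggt
Rpl28 at chr7:4792955-4792984, plus strand: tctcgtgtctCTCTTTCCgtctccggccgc
Windows of 4 members that moved apart from the rest in some comparisons are shown beside them, and none has a run at the annotated start. The 4 were picked after the values were seen. Rps27, Rps15a and Rpl28 have the run, and each was the only member called higher or lower in some comparison below. In the 4 windows capitals mark the longest run of C and T letters that begins with a C, if it has at least 5 letters.
Rpl22l1 at chr3:28805498-28805527, plus strand: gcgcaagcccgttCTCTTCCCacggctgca
Rpl7l1 at chr17:46782637-46782666, minus strand: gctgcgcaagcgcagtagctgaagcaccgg
Rps19bp1 at chr15:80264287-80264316, minus strand: cggaagtagctcgccgcgtgtgggcggggc
Rpl24 at chr16:55966265-55966294, plus strand: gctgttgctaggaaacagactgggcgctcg

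A run of at least 8 pyrimidines beginning with C, within 20 bases of the start, was in 40.3% of the member windows, in 12.6% of the 32851 windows of all genes and in 14.7% of those of mitochondrial ribosomal proteins. A C at the start followed by at least 4 pyrimidines was in 14 member windows, 18.2%, against 2.51% of all windows and 0 of 75 mitochondrial ones. The letters CCGGAAG, on either strand anywhere from 250 bases before to 50 after the start, were in 33.8% of member windows, 8.86% of all windows and 34.7% of mitochondrial ribosomal protein windows. The median scaled log2 change on LPS of members with the run at the start (n = 12 in RAW264.7 cells) and of those without it (n = 46) was 0.36 and 0.36 in wild-type 16 h cells, 0.34 and 0.24 in Setd1aDel 16 h cells, 0.19 and 0.12 in wild-type 6 h cells and 0.09 and 0.05 in Setd1aDel 6 h cells. In marrow-derived cells (n = 13 and 45) it was 0.06 and 0.01 in controls and 0.00 and -0.06 in Setd1bKO libraries. Members with the run had the higher median in all of these but wild-type 16 h cells, and no test was run. Not all other comparisons went this way. With 6 h dexamethasone alone the medians were 0.17 with the run and 0.19 without it in wild-type cells, and 0.08 and 0.10 in Setd1aDel cells. RefSeq starts are single annotated positions, and a missing run says only that those letters are not in that window.

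Ribosomal protein mRNAs made up a large part of the listed TPM (a transcript's share of its library, corrected for gene length), and RAW264.7 cells gave them a larger part than marrow-derived cells. The share was 5.37 to 8.44% of listed TPM over the 18 marrow-derived libraries, 15.4 to 19.5% over the 16 h RAW264.7 libraries, 19.0 to 24.0% over the 6 h ones and 12.2 to 15.2% over the IFNB1 ones. In control marrow-derived cells it was 8.40% ± 0.034 (SD, n = 3) on vehicle and 5.46% ± 0.096 on LPS. Wild-type RAW264.7 cells had 21.2% on 6 h vehicle, 19.2% on LPS and 23.2% on dexamethasone alone. The tables were normalized separately and list different genes, and no test was run on these shares.

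**Figure D1:**
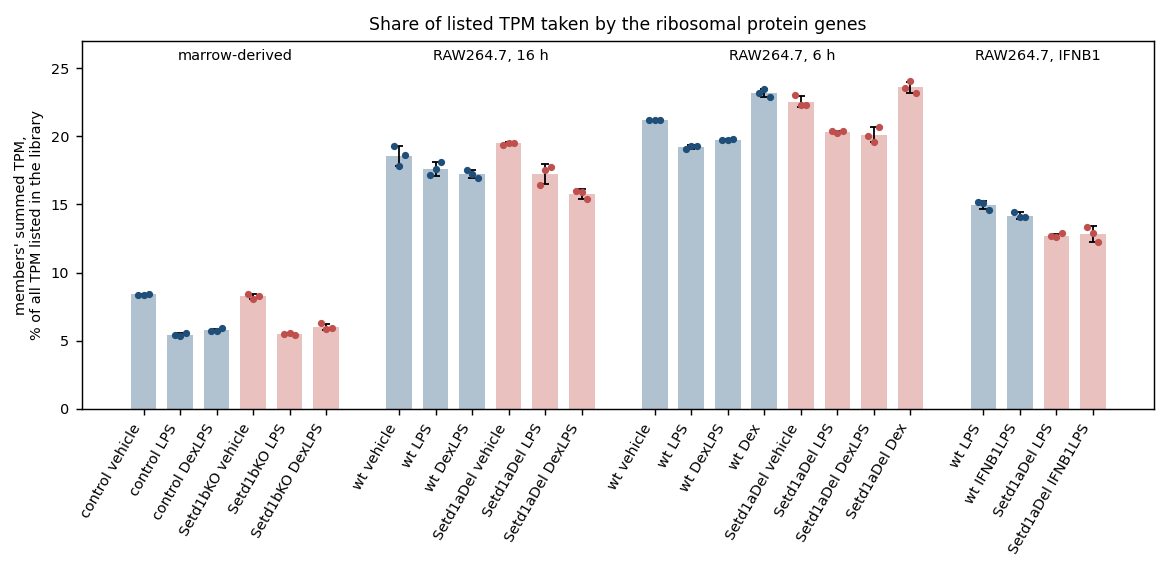
Summed TPM of the ribosomal protein genes as a percent of all TPM listed in the library (vertical axis), by group; points are libraries, bars group means and error bars the SD over 3 libraries. The marrow-derived libraries lie between 5.37 and 8.44%, and all RAW264.7 libraries lie above 12%.

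Within a group the levels ran over more than 2 orders of magnitude. In the marrow-derived and dexamethasone RAW264.7 experiments the lowest member was Rps19bp1, Rps24 or Rps12. Rps19bp1 is not a ribosomal protein, and the levels of Rps24 and Rps12 are uncertain. Rps29, of the small subunit, was the highest member in every group of the marrow-derived and dexamethasone RAW264.7 experiments, at 5603 TPM in control vehicle and 11281 TPM in wild-type 6 h vehicle cells. Rpl39, Rpl41 and the stalk protein gene Rplp1 were in the 5 highest in the vehicle group of each of those experiments. The median member was at 732 TPM in control vehicle marrow-derived cells, with quartiles of 565 and 983 TPM. In wild-type 6 h vehicle cells it was at 2110 TPM, with quartiles of 1629 and 2736 TPM. At the low end of the marrow-derived vehicle group stood Rps19bp1 at 32.0 ± 3.4 TPM, Rps24 at 35.3 ± 3.3 TPM and Rpl7l1 at 68.8 ± 1.1 TPM (SD, n = 3). Rps24 was at 118 TPM in wild-type LPS cells of the 6 h experiment and at 3613 TPM in those of the IFNB1 experiment. Its level is therefore uncertain, here and below. Of the 77 neighbouring pairs in the order of levels in the marrow-derived control vehicle group, 22 did not overlap between libraries, so most neighbours could not be ordered.

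How the table is centred decides much of what follows. TPM is a share, so a rise of some genes lowers the value of others. In 1 set of results the TPM were used as deposited, and in the other each library was first divided by its median-of-ratios size factor, which moves the median gene to about 0. Changes are log2(TPM + 1) differences, and "called" means an adjusted p under 0.05 in limma (Benjamini-Hochberg over all genes tested). Both counts stand side by side below, and a percent in parentheses after a count is the share of all genes called in that direction. Of the marker lists, 9 of 9 macrophage markers were listed in the marrow-derived cells and 8 of 9 in the dexamethasone RAW264.7 experiments, led by Lyz2. T cell, B cell, natural killer, dendritic and erythroid markers were not listed or were at 1.1 TPM or less when summed. Of the 4 fibroblast markers only Pdgfrb was listed in marrow-derived libraries, where it reached 10.7 TPM. Of the 5 neutrophil markers only S100a8 was listed in the marrow-derived and dexamethasone RAW264.7 experiments. It ran from 24.2 to 521 TPM over the marrow-derived libraries and reached 384 TPM in the 16 h and 206 TPM in the 6 h RAW264.7 libraries. RAW264.7 is a cell line, so S100a8 alone does not show that neutrophils were present. The part of other cell types in the results was not tested. In bulk RNA fewer cells of a type and less RNA per cell cannot be told apart.

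Setd1a fell in Setd1aDel cells in the 16 h experiment, from 39.0 ± 7.2 to 24.7 ± 3.6 TPM on vehicle (log2 change -0.63, adjusted p = 0.0023, limma). At 6 h it was 24.2 ± 2.4 against 17.1 ± 4.5 TPM on vehicle, which did not pass (adjusted p = 0.095, limma). In the IFNB1 experiment it fell from 34.5 ± 5.4 to 23.1 ± 3.4 TPM on LPS (adjusted p = 0.012, limma). Setd1b was higher, not lower, in the vehicle libraries labelled Setd1bKO, at 10.1 ± 0.36 against 4.54 ± 0.68 TPM (log2 change 1.00, adjusted p = 0.0024, limma). A gene-level TPM does not show whether 1 exon is missing, so this neither checks nor contradicts the deletion, and directions below are those of the libraries labelled Setd1bKO.

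LPS lowered nearly all ribosomal protein mRNAs as a share of marrow-derived cell RNA, by about as much as the median gene. In controls 74 of 78 were called lower (64.7% of all genes were) and 2 higher (20.6%), with a median of -0.50 against -0.49 for all genes. After scaling 15 were called higher (38.9%) and 14 lower (38.9%), with a median of 0.04. In the libraries labelled Setd1bKO 73 were called lower (58.2%) and 2 higher (24.9%), with a median of -0.45 against -0.37. After scaling 9 were higher (39.2%) and 28 lower (39.6%). In controls the small subunit genes had a median of -0.54 and the large subunit genes one of -0.49 as deposited. The share of calls in the set was near or below that of all genes once the shift of the median gene was taken out.

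Some members moved apart from this common shift. Rpl24, of the large subunit, was at 555, 536 and 564 TPM in control vehicle libraries and at 758, 715 and 774 TPM on LPS. The groups did not overlap, and it rose by 0.44 (SE 0.036, adjusted p = 8.8e-09, limma), or 0.98 after scaling. Rpl24 also rose in the Setd1bKO libraries, from 569, 557 and 568 to 753, 747 and 723 TPM.

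Other members fell by more than the set. Rpl10a went from 602, 614 and 570 to 285, 300 and 332 TPM in controls, a change of -0.96 (SE 0.063) and of -0.42 after scaling. Rpl13a, whose protein is also known outside the ribosome as a part of the interferon-regulated GAIT complex, went from 635, 620 and 617 to 322, 343 and 336 TPM, a change of -0.90 and of -0.36 after scaling. Both fell in every library of the group and passed under both scalings. In the Setd1bKO libraries Rps24, whose level is uncertain, went from 38.2, 41.8 and 50.0 to 18.8, 22.5 and 22.4 TPM (-0.99 as deposited, -0.61 scaled). Rpl7l1, the Rpl7 paralog that works in ribosome assembly, rose there from 67.9, 65.9 and 60.5 to 74.6, 79.1 and 80.9 TPM (0.27, or 0.66 scaled).

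The difference of the LPS response between Setd1bKO and control libraries passed for 7 members in the higher direction (16.4% of all genes) and for 1 in the lower direction (5.43%). After scaling 1 was called lower (10.2%) and none higher (8.55%). Of the 7, Rpl7l1 had the highest value, 0.26 as deposited and 0.12 scaled, where it did not pass (adjusted p = 0.13, limma).

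In 16 h RAW264.7 cells the set had a smaller median fall on LPS than all genes, and most members rose after scaling. The all-gene median was -0.38 in wild-type cells. As deposited 6 of 78 were called higher (17.4% of all genes) and 22 lower (66.1%) in wild-type cells, with a median of -0.06. After scaling 74 were higher (38.8%) and 0 lower (38.2%), with a median of 0.35 against 0.01. In Setd1aDel cells 1 was higher (18.4%) and 56 lower (66.4%) as deposited, with a median of -0.19 against -0.41. After scaling 68 were higher (40.6%) and Rps27l alone was lower (39.8%), with a median of 0.25.

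The same pattern was smaller in the 6 h RAW264.7 experiment, in which LPS also ran for 6 h. In wild-type cells Rpl24 and Rpl7l1 were higher (19.5%) and 46 were lower (52.3%) as deposited, with a median of -0.14 against -0.24 for all genes. After scaling 44 were higher (34.2%) and Rps24 and Rps27l were lower (33.8%), with a median of 0.12. In Setd1aDel cells 1 was higher (20.4%) and 54 lower (49.2%) as deposited. After scaling 32 were higher (33%) and Rpl28 alone was lower (33.3%), with a median of 0.07.

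Rps27l, the Rps27 paralog that is a known p53 target, had the lowest scaled change of the set in both genotypes at 16 h. In wild-type cells it was at 1629, 1661 and 1672 TPM on vehicle and at 1202, 1251 and 1217 TPM on LPS. The groups did not overlap, and it fell by 0.44 on the log2 scale as deposited (SE 0.032, adjusted p = 2.6e-09, limma), with a scaled change of -0.02 that did not pass. In Setd1aDel cells it went from 1619, 1553 and 1592 to 1032, 1023 and 1009 TPM, by -0.64 as deposited and -0.19 scaled, and passed on both. At 6 h wild-type cells went from 1469, 1447 and 1487 to 1101, 1094 and 1132 TPM (-0.40, or -0.14 scaled). Rps24, whose level is uncertain, was lower too at 6 h, from 176, 201 and 162 to 115, 127 and 111 TPM (-0.60, or -0.34 scaled). In 16 h Setd1aDel cells Rps24 fell by 0.44 as deposited and stood at 0.0034 after scaling.

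The paralogs Rpl22l1 and Rpl7l1 stood among the members furthest above the set, unlike the paralog Rps27l. Rpl22l1 rose in 16 h Setd1aDel cells from 522, 484 and 503 to 592, 630 and 643 TPM (0.31, or 0.75 scaled), and the groups did not overlap. In wild-type cells it was at 627, 535 and 552 TPM on vehicle and 623, 610 and 673 on LPS, which overlap. It passed there (0.15, adjusted p = 0.016, limma, or 0.57 scaled), but not as deposited without vehicle library 2 or 3 or LPS library 3. Rpl7l1 rose at 6 h in wild-type cells from 164, 173 and 169 to 189, 195 and 192 TPM and in Setd1aDel cells from 168, 165 and 160 to 195, 204 and 198 TPM. Its changes were 0.19 and 0.28 as deposited and 0.45 and 0.49 scaled, and all passed.

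**Figure D2:**
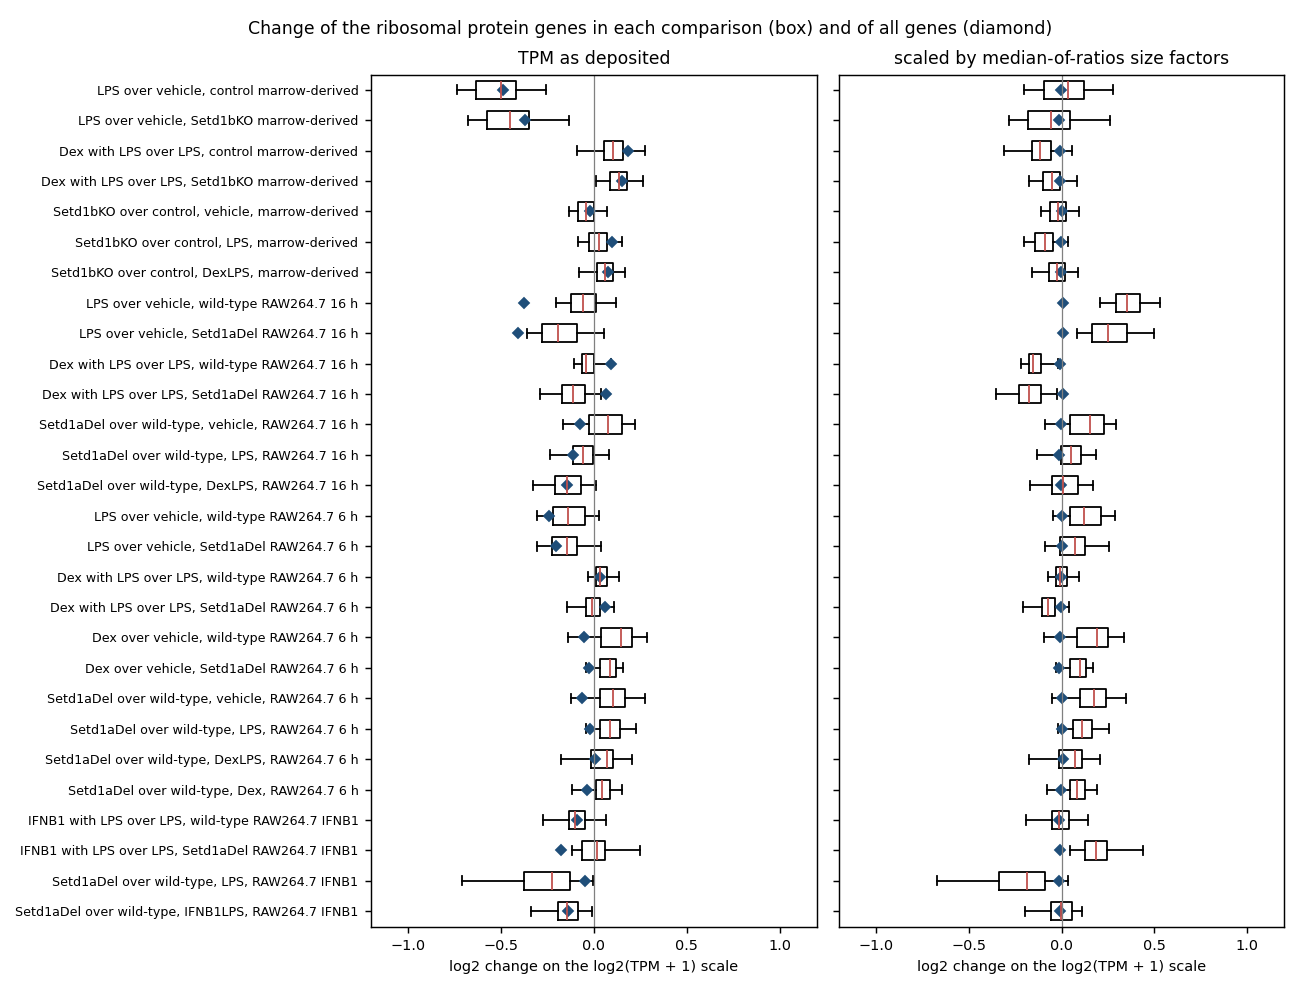
Log2 change of the ribosomal protein genes in each comparison of 2 groups, left with TPM as deposited and right after scaling; the box holds the quartiles over genes, the red line is their median, whiskers run from the 5th to the 95th percentile and the diamond is the median of all genes tested. For LPS over vehicle the boxes lie on the diamond in marrow-derived cells and to its right in 16 h cells and 6 h wild-type cells. In 6 h Setd1aDel cells the box holds the diamond, with the red line to its right.

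The LPS response in the 16 h experiment had a lower value in Setd1aDel than in wild-type cells, a larger fall as deposited and a smaller rise after scaling. The difference was called for 37 members lower as deposited (20.3% of all genes) and 21 scaled (19%), with none higher on either scale (13.1% and 16.1%). Its median was -0.13 as deposited and -0.10 scaled, against -0.03 and -0.01 for all genes. Rpsa, the laminin receptor and small subunit protein gene, differed by -0.28 (SE 0.068, adjusted p = 0.0044, limma) and by -0.25 scaled. Rpl31 differed by -0.34 as deposited and -0.30 scaled and passed on both. At 6 h only Rpl38 and Rpl35 passed as deposited, both lower (2.63%), at -0.20 and -0.17, and 5 after scaling (3.64%). Leaving out a single library took the 6 h count to between 0 and 2, with 0 without wild-type vehicle 3, wild-type LPS 1 or 3, Setd1aDel vehicle 2 or Setd1aDel LPS 3, and 1 without wild-type vehicle 2 or Setd1aDel vehicle 1 or LPS 1.

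Dexamethasone before LPS was compared with LPS alone, so these comparisons share their LPS libraries with those above. In control marrow-derived cells TPM of most members rose by less than the median gene. As deposited 44 of 78 were called higher (44.8% of all genes) and 4 lower (15.2%; Rpl12, Rpl22l1 and Rpl31 among them), with a median of 0.10 against 0.18. After scaling Rpl7l1 alone was higher (20.6%) and 31 were lower (26.8%), with a median of -0.12. In Setd1bKO libraries 52 were higher (39.2%) and Rpl12 alone lower (13.5%) as deposited. After scaling 3 were higher (15.3%) and 10 lower (23.8%), with a median of -0.05 against -0.01. The authors' deposited table gave 1 higher and 33 lower (26.2%) for the controls and 3 higher and 11 lower (23.3%) for Setd1bKO.

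Rps27 was at 1064, 1069 and 1020 TPM on LPS and at 1301, 1282 and 1344 TPM with dexamethasone in controls, a rise of 0.32 (adjusted p = 6.1e-07, limma) that did not pass after scaling (0.10, adjusted p = 0.10, limma). In Setd1bKO libraries Rps27 rose from 1184, 1192 and 1216 to 1584, 1468 and 1555 TPM, by 0.36 and by 0.17 scaled. Rps9, a small subunit protein gene, rose in Setd1bKO libraries from 1278, 1354 and 1376 to 1967, 1848 and 1780 TPM (0.48, or 0.30 scaled). Rps27, Rps9 and Rps24 were the 3 members higher there on the scaled values. Rpl10 was the 1 member whose dexamethasone response differed between genotypes, by -0.38 as deposited (3.53% of all genes lower) and -0.35 scaled (3.08%). Its pseudogene Rpl10-ps3 was at a like level, and the sum of both went from 853 ± 26 to 920 ± 29 TPM in controls and from 887 ± 16 to 918 ± 24 TPM in Setd1bKO libraries, with no test run on the sums.

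After 16 h of dexamethasone, ribosomal protein mRNAs of RAW264.7 cells were lower relative to the other genes. In wild-type cells 6 were called lower (12.3%) as deposited and 46 scaled (23.3%), with medians of -0.04 and -0.15 against 0.09 and -0.01 for all genes. None was higher on either scale (35.2% and 19.8% of all genes were). The as-deposited count was 2 without LPS library 2 and 3 without DexLPS library 2. In Setd1aDel cells 43 were lower (14.9%) as deposited and 50 scaled (21.6%), with medians of -0.11 and -0.17, and 28 as deposited without DexLPS library 3. The authors' deposited table had 50 lower and 0 higher in each genotype, beside 23% of its genes lower in wild-type and 21.5% in Setd1aDel cells, with medians of -0.15 and -0.18. The dexamethasone response did not pass as different between genotypes for any member, as deposited or scaled. Of all genes 2.88% were higher and 7.68% lower as deposited, and 5.7% and 5.3% scaled. The set's median was -0.07 as deposited, with 57 of 78 values below 0, and -0.02 scaled. That 0 is limma's count and does not show that the responses were alike.

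Rpl29, a large subunit protein gene, fell in both genotypes at 16 h. Wild-type libraries were at 257, 281 and 281 TPM on LPS and 227, 205 and 219 with dexamethasone, a change of -0.33 (SE 0.095) and of -0.44 scaled. Setd1aDel libraries went from 249.5, 265.4 and 209.6 to 188, 174 and 195 TPM (-0.37, or -0.43 scaled). Neither pair of groups overlapped. Rpl39 fell in Setd1aDel cells from 7094, 8318 and 8582 to 5782, 5979 and 6081 TPM (-0.42, or -0.48 scaled).

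At 6 h few members were called for dexamethasone with LPS as deposited. In wild-type cells 5 were higher as deposited (14.7%), with Rpl13, Rpl12, Rpl32 and Rpl8 among them. The count was 3 without DexLPS library 2, and Rpl13 alone was higher scaled (11.1%). The authors' deposited table gave 1 higher and 1 lower there, with 13.7% of its genes lower. In Setd1aDel cells 3 were higher (22.1%; Rpl28, Rpl29 and Rpl37a) and 5 lower (10.7%) as deposited, and 0 higher (16.1%) and 18 lower (15.8%) scaled. The 5 became 3 without LPS library 1, 2 without DexLPS library 2 and 9 without DexLPS library 3. The authors' deposited table had 19 lower (14.9%). The members that fell as deposited were the stalk proteins Rplp0, Rplp1 and Rplp2, which bind elongation factors, with Rpl12, which anchors the stalk, and Rpl27a.

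Rplp0 went from 3691, 3653 and 3512 to 3420, 3186 and 3226 TPM in those Setd1aDel cells, by -0.14 (adjusted p = 0.0023, limma) and -0.21 scaled. Rplp1 went from 6903, 6169 and 5612 to 4583, 4246 and 5115 TPM, by -0.42 (adjusted p = 0.012, limma), and lost its call without LPS library 1 or DexLPS library 2 (adjusted p = 0.065 and 0.058, limma). The groups did not overlap for either gene. Rpl12, Rpl27a and Rplp0 were the 3 members whose response differed between genotypes at 6 h, all lower in Setd1aDel, at -0.26, -0.25 and -0.21 (2.04% of all genes lower as deposited). The same 3 passed after scaling (2.65%). In wild-type LPS cells Rpl12 was at 2171 TPM in the 6 h experiment and 85.2 TPM in the IFNB1 experiment. Rpl27a was at 2594 and 481 TPM, so the levels of both are uncertain. The as-deposited count was 5 without Setd1aDel LPS library 3 and 6 without Setd1aDel DexLPS library 3.

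Dexamethasone without LPS raised most members in wild-type cells and fewer in Setd1aDel cells. In wild-type cells 46 of 78 were higher as deposited (12% of all genes) and 50 scaled (15.8%), with medians of 0.15 and 0.19 against -0.05 and -0.01. Rps19bp1 alone was lower on both (24.8% and 19.6%). In Setd1aDel cells 23 were higher as deposited (12%) and 26 scaled (13.3%), with medians of 0.09 and 0.10. The 23 became 12 without vehicle library 3 and 14 without Dex library 2. Rps15a rose in wild-type cells from 3762, 3697 and 3576 to 4834, 4769 and 5052 TPM (0.41, SE 0.047, adjusted p = 1.0e-06, limma). Rpl39 rose from 8301, 8775 and 8559 to 10633, 10741 and 11884 TPM (0.37). Rps19bp1 went from 64.2, 63.4 and 63.5 to 49.5, 45.0 and 55.0 TPM, by -0.35, and no group overlapped for any of the 3.

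Rps15a was the 1 member whose response to dexamethasone alone differed between genotypes, by -0.32 (adjusted p = 0.049, limma) as deposited and -0.35 scaled. Of all genes 0.1% and 0.134% were lower on the 2 scales. Its call was lost with the replicate block, with a pseudocount of 0.1 and without any 1 of 10 of the 12 libraries, and the exceptions were Setd1aDel vehicle 2 and Setd1aDel Dex 1. In Setd1aDel cells Rpl3 rose from 1286, 1274 and 1249 to 1444, 1508 and 1466 TPM (0.21) and Rpl4 from 2375, 2298 and 2279 to 2655, 2619 and 2624 TPM (0.18).

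The libraries labelled Setd1bKO differed little from controls in these genes. On vehicle 14 were lower (15.4%) and Rps27 alone higher (9.89%) as deposited, and Rpl10a and Rpl12 lower (14.4%) and Rps27 higher (11.1%) after scaling. The 14 became 7, 6 and 5 without control vehicle 1, 2 or 3 and 5 without Setd1bKO vehicle 2. On LPS 11 were higher (29%) and 3 lower (12.4%; Rpl12 and Rpl41 among them) as deposited, against 0 higher (15.9%) and 20 lower (19.9%) scaled, and the 11 became 7 without control LPS 1 and 5 without Setd1bKO LPS 1. On dexamethasone with LPS 19 were higher (23.5%) and Rpl10 and Rpl12 lower (11.5%) as deposited, against Rps9 and Rps27 higher (12.9%) and Rpl10, Rpl12 and Rps19 lower (16.5%) scaled. Rpl10 and its pseudogene Rpl10-ps3 summed to 920 ± 29 TPM in controls and 918 ± 24 TPM in Setd1bKO libraries there, with no test run. The 19 became 12 or 7 without control DexLPS 1 or 2 and 8 or 11 without Setd1bKO DexLPS 1 or 3. The all-gene median on LPS was 0.10 as deposited.

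Rps27 was at 1584, 1614 and 1611 TPM in control vehicle and 1752, 1754 and 1826 TPM in Setd1bKO vehicle libraries (0.15, or 0.17 scaled). Rpl12 was lower in Setd1bKO vehicle libraries, at 588, 562 and 582 against 666, 644 and 668 TPM (-0.19, or -0.17 scaled). Rpl10a was at 524, 488 and 491 against 602, 614 and 570 TPM (-0.25, or -0.22 scaled). None of the 3 overlapped between genotypes. With dexamethasone and LPS Rps9 was at 1967, 1848 and 1780 against 1521, 1480 and 1552 TPM (0.30, or 0.21 scaled).

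More members were higher than lower in Setd1aDel cells on vehicle, in both RAW264.7 experiments that held a vehicle group. In the 16 h experiment 30 were higher (15.3%) and 5 lower (32.9%; Rpl8, Rpl36al, Rpl22l1, Rpl7l1 and Rps2) as deposited, and 44 higher (22%) and Rpl8 alone lower (21%) scaled, with medians of 0.07 and 0.15 against -0.08 for all genes as deposited. In the 6 h experiment 32 were higher (6.58%) as deposited and 50 scaled (10.9%), with none lower (15.6% and 7.98%) and medians of 0.10 and 0.17. Both experiments use the same 2 genotypes, and whether their cultures were independent is not stated.

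On LPS the 16 h and 6 h experiments differed. At 16 h 0 were higher (17.5%) and 21 lower (42.4%) as deposited, and 14 higher (26.7%) and 5 lower (29.9%; Rpl8, Rps27l, Rps2, Rpl36al and Rpl7l1) scaled, with medians of -0.06 and 0.05. At 6 h 30 were higher as deposited (9.19%) and 36 scaled (12.2%), with none lower (12.3% and 10.7%). With dexamethasone and LPS for 16 h, 46 were lower (47.6%) as deposited, 29 without Setd1aDel DexLPS 3, and 14 higher (30.4%) and Rpl8, Rps27l, Rps2 and Rps12 lower (30.1%) scaled. For 6 h, 21 were higher (13.1%) and 7 lower (13.1%) as deposited, 13 higher without wild-type DexLPS 1, and 19 higher (13.9%) and 8 lower (13.2%) scaled. On dexamethasone alone 17 were higher as deposited (6.2%) and 20 scaled (8.22%), and the 17 fell to between 7 and 11 without any 1 of the 6 libraries.

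Rpl22, the more abundant paralog of Rpl22l1, was higher in Setd1aDel cells in all 4 groups of the 6 h experiment. It was at 1066, 1106 and 1089 TPM in wild-type vehicle and 1370, 1315 and 1259 TPM in Setd1aDel vehicle libraries (0.27, or 0.34 scaled). On LPS it was at 939, 921 and 938 against 1095, 1114 and 1115 TPM (0.25, or 0.28 scaled). The groups did not overlap in either. Rps15a went from 3762, 3697 and 3576 in wild-type to 4768, 4334 and 4776 TPM in Setd1aDel vehicle libraries (0.33, or 0.40 scaled). Rpl29 was at 206, 222 and 226 against 367, 279 and 282 TPM (0.49, SE 0.097, or 0.56 scaled). In the IFNB1 experiment the Rpl22 means went the other way. Wild-type and Setd1aDel cells had 1254 ± 35 and 1153 ± 48 TPM of Rpl22 on LPS. With IFNB1 and LPS they had 1127 ± 40 and 1080 ± 41 TPM.

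In the 6 h group with dexamethasone and LPS Rplp0, Rplp1 and Rplp2 were lower in Setd1aDel cells, and Rpl12 did not pass (-0.06, adjusted p = 0.21, limma). Rplp0 differed by -0.12 on both scales. Rplp1 was at 4583, 4246 and 5115 TPM against 6815, 6463 and 6230 in wild-type cells (-0.49, or -0.48 scaled), and Rplp2 at 2168, 1938 and 2304 against 2993, 3164 and 2825 TPM (-0.49 on both scales). Rpl36 was at 1070, 986 and 1664 against 1871, 1939 and 1705 TPM (-0.61, or -0.60 scaled), and lost its call without Setd1aDel DexLPS 1 or 2 (adjusted p = 0.052 and 0.068, limma). The third library stands near the wild-type ones for Rpl36. Rpl22l1 was at 251, 247 and 182 against 266, 261 and 269 TPM, a value of -0.24 (adjusted p = 0.040, limma). It did not pass without any 1 of the wild-type libraries, nor without the lowest Setd1aDel library (-0.09, adjusted p = 0.24, limma).

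At 16 h Rps23 rose on vehicle from 1763, 1888 and 2029 to 2320, 2276 and 2365 TPM (0.30, or 0.37 scaled) and Rps27 from 4059, 4155 and 4427 to 5062, 5136 and 5118 TPM (0.28, or 0.35 scaled). Rpl8 went the other way in all 3 treatments, with 1523, 1522 and 1504 TPM in wild-type and 1326, 1381 and 1335 TPM in Setd1aDel vehicle libraries. Its changes were -0.17 on vehicle, -0.25 on LPS and -0.33 with dexamethasone and LPS as deposited, and -0.09, -0.14 and -0.17 scaled, and all passed. Rps27l was at 1202, 1251 and 1217 TPM in wild-type and 1032, 1023 and 1009 TPM in Setd1aDel LPS libraries (-0.26, or -0.15 scaled). With dexamethasone and LPS it was at 1193, 1235 and 1234 against 954, 1009 and 929 TPM (-0.34, or -0.18 scaled). No group overlapped in these.

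**Figure D3:**
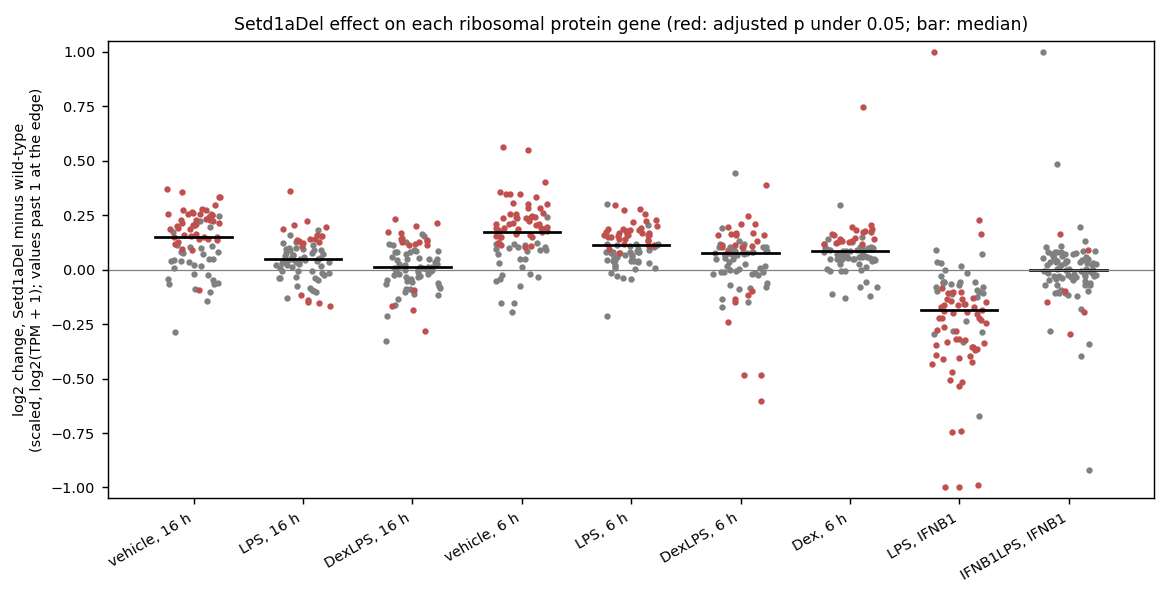
Log2 difference of Setd1aDel minus wild-type for each ribosomal protein gene after scaling (vertical axis, values past 1 drawn at the edge), by treatment and experiment; red points passed an adjusted p of 0.05 and bars are medians. The points shift upward on vehicle at 16 h and 6 h, with medians of 0.15 and 0.17, and downward on LPS in the IFNB1 experiment, with a median of -0.19.

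A fit over the 16 h and 6 h libraries together, added after the data were seen, compared the Setd1aDel effect between the 2 experiments. The 16 h effect was the lower one for 15 members on vehicle (11.7%; 5 were higher, 11.6%), for 40 on LPS (27.8%) and for 45 with dexamethasone and LPS (34.6%) as deposited. After scaling 13 were lower on vehicle (12.4%), 15 on LPS (20.5%) and 12 with dexamethasone and LPS (21.2%; 7 were higher, 22%). Time and experiment cannot be told apart here. Rps27l differed by -0.40 on LPS and -0.50 with dexamethasone and LPS (-0.31 and -0.33 scaled). Rpl29 differed by -0.71 on vehicle on both scales, and Rplp1 by 0.46 with dexamethasone and LPS, or 0.62 scaled.

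The IFNB1 experiment gave other values for the same contrast. On LPS alone 65 of 87 members tested were lower in Setd1aDel cells (24.9% of all genes) and Rps27 and Rpl31 higher (17.7%) as deposited, and 52 lower (20.7%) and Rps27, Rpl31 and Rps20 higher (21%) scaled, with medians of -0.23 and -0.19 against -0.05 and -0.01. With IFNB1 and LPS 42 were lower (38.4%) as deposited and 4 scaled (21.8%; Rpl22l1, Rpl36al, Rpl13a and Rpl7l1), where Rps19 and Rps20 were higher (23.9%). Rpl6l and Rps3a3 did not reach the level tested. The GENCODE annotation types both of these as pseudogenes, with Rpl37rt, Rps12l1 and Rps3a2, and of the latter Rpl37rt and Rps12l1 are among the 65. Rps12l1 passed the filter on low values only through the wild-type LPS group. Setd1aDel and wild-type shares of listed TPM on LPS were 12.7 and 14.98% here but 20.3 and 19.2% in the 6 h experiment, although the LPS treatment has the same label there apart from ethanol.

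Rpl22l1 and Rpl36al were lower in Setd1aDel cells in both IFNB1 groups. Rpl22l1 was at 697, 708 and 707 TPM in wild-type LPS and 541, 529 and 546 TPM in Setd1aDel LPS libraries (-0.39, SE 0.028, or -0.35 scaled). With IFNB1 it was at 693, 680 and 728 against 506, 522 and 522 TPM (-0.44, or -0.30 scaled). Rpl36al was at 1018, 1035 and 1004 against 757, 780 and 768 TPM on LPS (-0.41, or -0.37 scaled). None of these groups overlapped. Rps26 was at 878, 587 and 529 against 210, 210 and 272 TPM on LPS (-1.50, SE 0.32, adjusted p = 0.0033, limma), and Rps7 at 598, 464 and 457 against 237, 228 and 273 TPM (-1.03). Rpl37 was at 394, 325 and 323 against 193, 182 and 228 TPM (-0.79). Its mean in wild-type LPS cells was 347 TPM here and 2799 TPM in the 6 h experiment, so its level is uncertain.

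IFNB1 with LPS against LPS left the set near the median gene in wild-type cells and above it in Setd1aDel cells. In wild-type cells 19 were lower (23.5%) and Rps20 and Rpl35a higher (9.5%) as deposited, and Rps20, Rpl35a and Rpl27a higher (14.7%) and 1 lower (12.4%) scaled. That 1 was Rps12l1, at 16.4, 103.9 and 14.4 TPM in wild-type LPS libraries and listed at 0 in the other 9, so it was tested only because of the group where it is high and had to differ. The 19 became 12 without LPS library 1, 8 without LPS library 2 and 12 without IFNB1LPS library 3. In Setd1aDel cells 9 were lower (43.6%) and Rpl27 alone higher (10.5%) as deposited, and 54 higher (22%) and 0 lower (19.9%) scaled, with medians of 0.02 and 0.19 against -0.18 and -0.01. The authors' deposited table gave 3 higher and 0 lower in wild-type cells (9.78% of its genes higher) and 54 higher and 0 lower in Setd1aDel cells (13.1%), with a median of 0.21. The difference of the responses was called for 1 member as deposited (3.31%) and 8 scaled (5.66%), all higher. Of all genes 8.01% were lower as deposited and 2.9% scaled. The 1 member as deposited was again Rps12l1, so that no member is left as deposited whose test was independent of the filter, and the count was 2, 3 and 20 without wild-type LPS 3, wild-type IFNB1LPS 1 or Setd1aDel IFNB1LPS 3.

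Reads shared with near-identical copies limit several of these genes. Rps27 alone was at 248, 137 and 186 TPM in wild-type and at 1465, 1820 and 247 TPM in Setd1aDel LPS libraries of the IFNB1 experiment, where the groups overlap. It passed at 2.23 (adjusted p = 0.044, limma) and did not pass without any 1 of the LPS libraries except Setd1aDel LPS 3. Its copy Rps27rt moved the other way, and their sum was 4664 ± 82 against 3992 ± 59 TPM (SD, n = 3), lower in Setd1aDel cells. The sum of Rps7 and Rps7-ps3 was 2224 ± 55 against 1849 ± 35 TPM, a smaller ratio than for Rps7 alone. Rps2 was at 27.7 TPM in wild-type LPS cells and its copy Rps2-ps10 carried most of a sum of 3323 ± 62 TPM. Of the 78 members in the IFNB1 and 6 h tables, 12 were at least 4-fold lower in wild-type LPS cells of the IFNB1 table, 1 (Rps24) at least 4-fold higher and 53 within 2-fold. There, 160 rows with -ps symbols summed to 23183 TPM in wild-type LPS cells, and each of the other tables lists 3 such rows. Rps12, at 14.9, 16.0 and 19.1 TPM in 16 h wild-type vehicle libraries, stood beside Rps12-ps3, with a sum of 2994 ± 171 TPM, so its own value is uncertain.

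**Figure D4:**
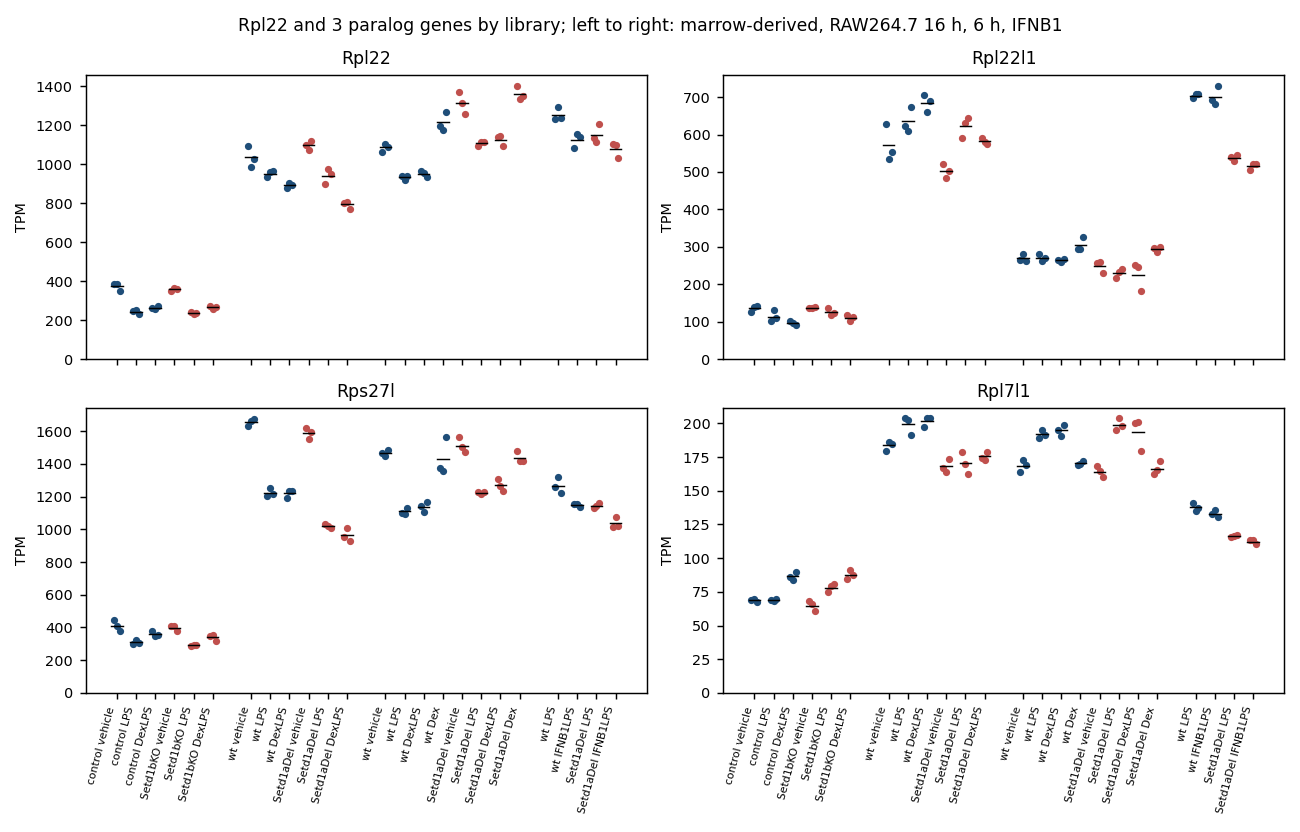
TPM (vertical axes) of Rpl22 and of the paralog genes Rpl22l1, Rps27l and Rpl7l1 in each library, by group; points are libraries and lines group means, and blue marks control or wild-type and red Setd1bKO or Setd1aDel. Rpl22l1 lies between 182 and 326 TPM in the 6 h libraries and between 484 and 705 TPM in the 16 h libraries.

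Rpl22l1 stood below Rpl22 in every group, at 136 ± 9.1 against 376 ± 20 TPM in control vehicle marrow-derived cells and at 270 ± 10 against 1087 ± 20 TPM in wild-type 6 h vehicle cells. In 16 h wild-type vehicle cells it was at 571 ± 49 TPM against 1037 ± 54 TPM. Rps27l was at 410 ± 36 TPM beside 1603 ± 17 for Rps27 in control vehicle cells. In the IFNB1 table the order was reversed in wild-type cells, with Rps27l at 1265 and Rps27 at 190 TPM on LPS, where Rps27 shares reads with its copy Rps27rt. Rpl7l1 was at 68.8 ± 1.1 TPM beside 617 ± 11 for Rpl7. Rps27l fell in control marrow-derived cells on LPS from 448, 407 and 376 to 302, 320 and 302 TPM (-0.41), a value of 0.13 after scaling, and Rpl22l1 from 125, 140 and 142 to 102, 131 and 109 TPM (-0.26), a value of 0.27 after scaling.

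Ribosome biogenesis factors, which build ribosomes in the nucleolus, did not follow the ribosomal proteins everywhere. After scaling, LPS raised 40 and lowered 6 of 62 in control marrow-derived cells, with a median of 0.27, and raised 58 and lowered 1 in 16 h wild-type RAW264.7 cells, with a median of 0.50. Of all genes 38.9 and 38.8% were higher and 38.9 and 38.2% lower in these comparisons. As deposited the counts were 9 and 34 (20.6% and 64.7% of all genes), and 27 and 16 (17.4% and 66.1%). Dexamethasone with LPS raised 47 and lowered 4 in control marrow-derived cells scaled (20.6% and 26.8%), a median of 0.33, where ribosomal proteins had -0.12. In 16 h Setd1aDel vehicle cells 1 biogenesis factor was higher (22%) and 37 lower (21%) scaled, a median of -0.15, where ribosomal proteins had 0.15. These are counts of lists and medians, with no test of the difference.

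Mitochondrial ribosomal proteins, which work in the mitochondrial ribosome and are not TOP mRNAs, were lower in Setd1aDel cells at 16 h. After scaling 40 of 75 were lower and 3 higher on vehicle, 37 and 1 on LPS and 52 and 1 with dexamethasone and LPS, where 21, 29.9 and 30.1% of all genes were lower. As deposited 58, 59 and 68 were lower, where 32.9, 42.4 and 47.6% of all genes were. Translation initiation factors rose with LPS on scaled values, with 24 of 30 higher in control marrow-derived cells and 25 of 30 in 16 h wild-type cells, beside 38.9 and 38.8% of all genes. As deposited 10 and 13 were higher (20.6% and 17.4% of all genes) and 10 lower in each (64.7% and 66.1%). Larp1 went from 19.8 ± 0.24 to 68.1 ± 1.1 TPM on LPS in control marrow-derived cells (log2 change 1.73, or 2.25 scaled). Myc went from 0.398 ± 0.10 to 52.5 ± 0.47 TPM on LPS in 16 h wild-type cells and from 3.24 ± 0.14 to 61.6 ± 2.8 TPM in 6 h wild-type cells. In control marrow-derived cells it went from 6.50 ± 0.078 to 3.29 ± 1.3 TPM (-0.85 as deposited, -0.41 scaled).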

How the data were processed

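Poly(A) RNA-seq libraries were made with a stranded mRNA kit, per the labels' protocols. The deposited TPM values came from Salmon 0.10.2 with R 3.6.0 and a GRCm38.p6 (mm10) reference, per the submitters' processing notes, and no annotation release is named there. The authors' deposited log2 fold changes and adjusted p-values, for which the notes name DESeq2, were only copied. The IFNB1 table names no unit in its header and was read as TPM, a deposited value with 1 decimal. TPM keeps no read depth, so depth is unknown and no counting interval is given.

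Here log2(TPM + 1) was fitted with limma 3.58.1 (R 4.3.3, trended empirical Bayes), all groups of an experiment in 1 fit, over genes that reached 1 TPM in 3 or more libraries. P-values were adjusted by Benjamini-Hochberg over all genes tested, with 0.05 as the threshold. The fit was tested on simulated data: of genes changed by 0.5 (log2), 92.5% were called for control marrow-derived LPS, over 9078 genes, and 83.6% for wild-type 6 h LPS, over 8975 genes. Of genes changed by 0.25, 50% and 51.5% were called. Each size was given to 66 or 67 genes of higher level in 1 group, with no shift of the median gene. No difference of responses was simulated. The simulation therefore does not cover the common shift on LPS or the tests between genotypes' responses. Results were recomputed after median-of-ratios scaling, with a replicate block, with 0.1 as pseudocount, without the filter and without each library in turn. Members, gene lists and the naming rule (the 3 called members highest and 3 lowest in change per comparison, paralogs, and listed regulators) were chosen with earlier results of these data known. Members outside that rule were named after their values were seen where a count was 5 or fewer, as were the promoter windows shown. The fit over the 16 h and 6 h libraries and the sums over copies were added after the data were seen. Some members are counted but not reported by name here.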

Additional observations from a re-analysis of the deposited data

Results flagged for a closer look

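The following counts were flagged because 2 groups responded differently to the same contrast, each tested with an interaction term in limma at an adjusted p of 0.05. TPM were as deposited. In marrow-derived cells the LPS response differed between Setd1bKO and control libraries for 7 members in the higher direction (16.4% of all genes) and 1 in the lower (5.43%), and the dexamethasone response for 1, Rpl10 (3.53% lower). With dexamethasone and LPS, Rpl10 and its pseudogene Rpl10-ps3 summed to 920 ± 29 TPM in controls and 918 ± 24 TPM in Setd1bKO libraries. No test was run on these sums. In RAW264.7 cells the LPS response was lower in Setd1aDel than in wild-type cells for 37 of 78 members in the 16 h experiment (20.3% of all genes) and 2 in the 6 h one (2.63%). The 7 and the 2 of 78 are no larger a share than that of all genes. At 6 h the dexamethasone response under LPS was lower for 3 (2.04%), Rpl12, Rpl27a and Rplp0. The levels of Rpl12 and Rpl27a are uncertain. The dexamethasone response without LPS was lower for 1, Rps15a (0.1%), whose call was lost with the replicate block and with a pseudocount of 0.1. The IFNB1 response was higher for 1 (3.31%), the pseudogene Rps12l1. It is at 0 in all libraries outside wild-type LPS and was tested only through that group, so this call is no evidence of a difference.

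The Setd1aDel effect itself differed between the 16 h and 6 h experiments. On vehicle it was higher at 16 h for 5 members (Rpl36a, Rplp0, Rps24, Rps27 and Rps28; 11.6% of all genes) and lower for 15 (11.7%). On LPS it was lower at 16 h for 40 (27.8%). With dexamethasone and LPS it was higher for 2, Rplp0 and Rplp1 (11.9%), and lower for 45 (34.6%). Time of treatment and experiment cannot be told apart in these counts.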

How the results depend on the processing

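The counts of called members depend mainly on scaling. With median-of-ratios scaling the lower calls on LPS went from 74 to 14 in control and 73 to 28 in Setd1bKO marrow-derived cells, from 22 to 0 and 56 to 1 in wild-type and Setd1aDel cells at 16 h, and from 46 to 2 and 54 to 1 at 6 h. Higher calls with dexamethasone and LPS went from 44 to 1 and 52 to 3 in control and Setd1bKO cells and from 5 to 1 in wild-type 6 h cells, and lower calls from 6 to 46 in wild-type 16 h and 5 to 18 in Setd1aDel 6 h cells. Setd1bKO calls went from 14 to 2 on vehicle, 11 to 0 on LPS and 19 to 2 with dexamethasone and LPS, and from 7 to 0 for the LPS response. Setd1aDel calls went from 21 to 5 on LPS and 46 to 4 with dexamethasone and LPS at 16 h, from 32 to 50 on 6 h vehicle and from 42 to 4 with IFNB1. The difference in LPS response went from 37 to 21 at 16 h and 2 to 5 at 6 h, that in IFNB1 response from 1 to 8, and the 16 h minus 6 h effect from 40 to 15 on LPS and 45 to 12 with dexamethasone and LPS. Lower calls with IFNB1 went from 19 to 1 and 9 to 0 in wild-type and Setd1aDel cells. Of the single genes, Rpl22l1 (0.27) and Rps27l (0.13) on LPS in control marrow-derived cells and Rps24 (0.0034) on LPS in 16 h Setd1aDel cells turned sign. The cause was not tested.

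The numbers do not pair the libraries: same-numbered libraries of different groups had a median correlation of deviations of 0.00094 in marrow-derived cells and -0.016 in the 16 h experiment. With the replicate block the call on the dexamethasone response without LPS (Rps15a) went from 1 to 0 and that on the IFNB1 response from 1 to 2. A pseudocount of 0.1 also took the former to 0. Dropping the filter kept all 39 leading counts within 1.5 times.

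Leaving out 1 library gave 5 to 13 (of 14) on Setd1bKO vehicle, 5 to 10 (of 11) on LPS and 7 to 25 (of 19) with dexamethasone and LPS. For dexamethasone with LPS it gave 2 to 6 (of 6) and 28 to 43 (of 43) in wild-type and Setd1aDel cells at 16 h, and 3 to 6 (of 5) and 2 to 9 (of 5) at 6 h, and for dexamethasone alone in Setd1aDel cells 12 to 28 (of 23). Setd1aDel counts were 29 to 43 (of 46) with dexamethasone and LPS at 16 h, 13 to 25 (of 21) at 6 h and 7 to 11 (of 17) on dexamethasone alone. The 6 h differences in response were 0 to 2 (of 2) for LPS, 3 to 6 (of 3) for dexamethasone under LPS and 0 to 2 (of 1) without it. IFNB1 gave 8 to 18 (of 19) in wild-type cells and 1 to 20 (of 1) for the difference in response.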
